A study of Mus musculus with 12 samples.

Results

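The clustered histone genes are the replication-dependent histone genes of the mouse, taken here as every gene of the deposited gene lists whose symbol begins with Hist1h, Hist2h, Hist3h or Hist4h. The rule found 67 genes among 32285: 6 code for linker histone H1, 18 for H2A, 18 for H2B, 12 for H3 and 13 for H4. The rule used names only and no measured value. Their transcripts were counted as unique molecular identifiers (UMIs, 1 per captured molecule) in single-cell RNA-seq of the liver of C57BL6/J mouse pups, with 1 library per pup. The 6 control pups had a needle stick with no blood taken. The 6 pups with phlebotomy-induced anemia were bled by 20 uL per g, first on postnatal day 2 and last on postnatal day 10, and the livers of both groups were taken on postnatal day 11 per the labels. All pups were of the same strain and carried no transgene or deletion that the labels name, and the libraries hold dissociated liver cells without a sort for cell type.

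Histones H2A, H2B, H3 and H4 form the core of the nucleosome, around which DNA is wrapped, and H1 binds the linker DNA between nucleosomes. The clustered genes are transcribed mainly in S phase, when new DNA has to be packaged. Their transcripts usually end in a conserved stem-loop in place of a poly(A) tail, the stem-loop is bound by the protein Slbp, and the transcripts are degraded when replication ends. A few members also give longer polyadenylated transcripts in cells that no longer divide. In the erythroid lineage of fetal and neonatal liver, cells divide several times, fill with globin mRNA, condense their chromatin and lose the nucleus. The libraries were primed on poly(A), so a UMI count is not a measure of abundance that can be set against that of another gene. For 1 gene, the captured share may also differ between cell classes, which was not measured, so levels below are those of captured transcripts.

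The stem-loop is shown for members that the results turn on, since most members share it outside their coding sequence. In the GENCODE M21 transcripts (build GRCm38), 45 of the 67 genes had a stem of 6 base pairs opening with GG over a loop of 4 bases, between 21 and 58 bases after the stop codon. A further 15 had under 20 bases of annotated 3′ UTR to search, and introns were not searched. The form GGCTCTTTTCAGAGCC was found in 25 genes, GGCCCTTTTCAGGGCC in 7 and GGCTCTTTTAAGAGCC in 6. Capitals mark the stem-loop.
Hist1h1c (H1), chr13:23738808-23740367, plus strand: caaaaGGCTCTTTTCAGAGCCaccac
Hist1h2ap (H2A), chr13:21833026-21833507, minus strand: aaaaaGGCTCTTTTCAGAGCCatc
Hist1h2ae (H2A), chr13:23570517-23571220, minus strand: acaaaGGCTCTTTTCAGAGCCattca
Hist2h2aa1 (H2A), chr3:96245497-96246082, plus strand: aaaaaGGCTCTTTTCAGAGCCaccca
Hist1h2bj (H2B): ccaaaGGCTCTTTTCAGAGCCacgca
Hist3h2ba (H2B), chr11:58948920-58949533, plus strand: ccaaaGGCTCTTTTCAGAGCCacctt
Hist1h3e (H3): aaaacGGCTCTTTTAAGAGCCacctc
Hist1h4i (H4), chr13:22040636-22041362, minus strand: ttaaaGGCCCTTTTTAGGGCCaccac
Hist4h4 (H4), chr6:136801553-136804415, minus strand: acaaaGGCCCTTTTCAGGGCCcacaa

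Hist1h2bc (H2B), at chr13:23684199-23692908 on the plus strand, was 1 of 7 members with an annotated 3′ UTR of 20 bases or more and no stem-loop found in it. It had 2 exons, a 3′ UTR of 742 bases and 1 AATAAA polyadenylation signal, and 19 members in all had AATAAA in an annotated 3′ UTR. Hist1h2ap carried an encoded run of 12 adenines 26 bases after its stop codon, directly before the stem-loop, where an oligo(dT) primer can bind without a tail (run in capitals).
Hist1h2ap: ccgaaaagAAAAAAAAAAAAggctcttt
Hist1h2ao held the same run. The 3′ UTR also held a run of 15 in Hist1h2ac, of 11 in Hist1h2be and of 8 in Hist1h2ae, Hist1h2bc and Hist1h1d. Capture at such runs was not measured. The 67 genes lay in 4 blocks, with 54 genes on chromosome 13 (21715763 to 23934851), 10 on chromosome 3 (96219865 to 96270132), 2 on chromosome 11 and 1 on chromosome 6, and 62 were single-exon genes. Near-identical copies limit the assignment of reads: 27 members shared over 50% of their 90-base windows with another gene, so their values may include reads of copies. Among them were Hist1h2ap (92.4%), Hist1h2ao (92.8%), Hist2h2aa1 (88.5%), Hist1h2ai (88.8%), Hist1h4m (88.5%), Hist1h2an (83.9%), Hist1h2ag (76.8%), Hist1h2af (66.5%) and Hist1h3b (57.4%).

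The promoters differed by histone type. RefSeq promoters (GRCm38.p6, 250 bases before to 50 after the start) were matched for 62 members with 63 promoters, and 4 motifs were searched on both strands. CCAAT was present in all promoters of H1 (6 of 6), H2A (18 of 18), H2B (16 of 16) and H3 (10 of 10) but in 3 of 12 of H4, against 37.4% of 32851 promoters of all genes. The octamer ATTTGCAT was present in 7 of 18 H2A and 7 of 16 H2B promoters and in none of H1, H3 or H4, against 1.74% of all promoters. Some H2A and H2B genes start close together on opposite strands, such as Hist1h2ae (at 23571220) and Hist1h2bg (at 23571396). Their promoter windows overlap, so 1 motif can count for both types and the counts of H2A and H2B are not independent. The H1 box AAACACA was present in 5 of 6 H1 promoters, 2 of 18 of H2A, 2 of 16 of H2B and none of H3 or H4, against 7.18%. TATAAA was present in 4 of 6, 11 of 18, 8 of 16, 4 of 10 and 8 of 12 promoters of H1, H2A, H2B, H3 and H4, against 13.6%. An H1, an H2A and an H4 promoter are printed up to the start, with the motifs of either strand in capitals, because these 3 genes rose in cycling B-like cells as described below. The 250 bases before the start are shown for Hist1h1b and Hist1h4i, and only the nearest 150 for Hist1h2ae.
Hist1h1b, chr13:21780626-21780875, minus strand: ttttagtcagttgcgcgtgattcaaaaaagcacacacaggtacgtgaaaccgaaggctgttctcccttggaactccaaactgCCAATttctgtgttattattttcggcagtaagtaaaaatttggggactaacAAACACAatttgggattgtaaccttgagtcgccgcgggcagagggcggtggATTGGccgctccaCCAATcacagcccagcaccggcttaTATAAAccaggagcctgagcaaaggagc
Hist1h2ae, chr13:23571221-23571370, minus strand: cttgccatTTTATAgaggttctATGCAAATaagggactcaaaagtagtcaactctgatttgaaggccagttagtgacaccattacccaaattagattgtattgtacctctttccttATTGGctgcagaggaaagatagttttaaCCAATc
Hist1h4i, chr13:22041363-22041612, minus strand: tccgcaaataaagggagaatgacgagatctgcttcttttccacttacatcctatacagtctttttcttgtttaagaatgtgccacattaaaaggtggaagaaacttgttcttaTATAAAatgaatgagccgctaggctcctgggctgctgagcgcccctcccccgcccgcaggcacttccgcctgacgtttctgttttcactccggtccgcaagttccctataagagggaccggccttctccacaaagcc

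Control libraries held 46252146 to 65960679 UMIs and anemia libraries 52021617 to 74545930, and 206146 of 207537 barcodes were kept (98075 control and 108071 anemia). Any pair of libraries shared 56 to 122 barcodes, at most 0.691% of the smaller library. Clustering without the histone genes gave 55 clusters, of which 183712 cells fell into 8 lineages by marker genes, named here as B-like (B and pre-B), NK-like (with T-like), granulocyte-like, macrophage-like (with monocytes), erythroid-like, endothelial-like, hepatocyte-like and stellate-like. Clusters were called cycling, resting or between from fixed lists of S-phase and G2M genes that hold no histone gene. The states of a lineage did not always hold the same kind of cell. Cycling B-like cells were 2 clusters with pre-B markers and 1 with B markers, and resting ones 3 clusters with B markers. Cycling and resting NK-like cells were 1 cluster each with NK markers, while the T-like cluster lay between and entered no comparison. Cycling granulocyte-like cells were a cluster named granulocyte progenitors and led by Elane, Mpo, Prtn3 and Ctsg, and resting ones a cluster with neutrophil markers, so that cell kind and cycling state cannot be told apart there. The top genes of the cycling cluster also held Car1, a listed erythroid marker, and Pf4, a listed megakaryocyte marker. The part of other progenitors in that cluster was not tested. From UMIs summed over a class alone, fewer expressing cells and fewer transcripts per cell cannot be told apart. The share of cells with a UMI is given below for some members in erythroid-like cells.

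One library stood apart for the members. In control 3, 11 of the 53 members with enough UMIs were under 1 in 2 of the median of the other 11 mice in cycling B-like cells, as were 12 of 28 in cycling NK-like, 7 of 16 in cycling granulocyte-like, 8 of 24 in cycling endothelial-like and 22 of 35 in cycling erythroid-like cells. No other mouse had more than 5 such members in any of these classes. Hist1h1b, the gene of linker histone H1.5, stood at 179.8 counts per 1000000 UMIs (CPM) in cycling B-like cells of control 3 and at 450.9 to 556.9 CPM in the other 11 mice. The shortfall was uneven over the types: the median difference from the other mice in these cells was -1.42 on the log2 scale for H1 and -0.60 for H2A with -0.34 for H3, 0.01 for H2B and 0.24 for H4. In cycling erythroid-like cells the medians of all 5 types were lower in control 3, at -2.03 for H1, -2.02 for H2A, -0.66 for H2B, -2.12 for H3 and -0.64 for H4. Its sum in this class was the shallowest of all mice, at 167074 UMIs, so low values there rest on few UMIs. In cycling B-like cells Hist1h4i was higher in control 3 (137.8 CPM) than in all other mice (88.9 to 127.6 CPM), while in cycling erythroid-like cells it lay within their range (168 against 71.8 to 239 CPM). The cycling gene Mki67 was lowest in control 3 in both classes, at 341 against 506 to 603 CPM in B-like and 509 against 796 to 1070 CPM in erythroid-like cells. Pcna was at 393.3 against 274.9 to 395.5 CPM and at 467 against 320 to 434 CPM in the same classes. The cause was not tested. Without this library the counts of called members differed by at most 2 in each direction from those with it, and counts between anemic and control mice that differed are given both ways.

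Over all kept cells, 66 of the 67 members had at least 1 UMI and Hist1h2ba had none. The members held 495220 UMIs, of which Hist1h2ap held 37.7%, Hist1h1b 9.63%, Hist1h2bc 7.87%, Hist1h2ae 5.08% and Hist1h1a 3.89%. By type, H2A held 53.0% of the UMIs, H1 20.5%, H2B 14.1%, H4 6.23% and H3 6.21%. The counts were uneven: 9 members had over 10000 UMIs and 6 had under 100. The summed level over all kept cells was 579 to 829.4 CPM in control mice (median 638) and 515 to 837 in anemic mice (median 703), and the groups overlapped, at 679 ± 95.1 and 680.0 ± 126 CPM (mean ± SD, n = 6 each).

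The members were far higher in cycling than in resting classes. Their summed level was 3901 ± 568 CPM in cycling B-like cells (2721 to 5124 over 12 mice, median 3930) and 163 ± 36.9 CPM in resting B-like cells (94.3 to 217, median 165). Cycling NK-like cells had 3320 ± 675 CPM (2153 to 4846) and resting ones 155 ± 86.3 CPM (80.8 to 405). Cycling erythroid-like cells had 4216 ± 863 CPM (2717 to 5920) and late, globin-rich erythroid-like cells had 39.7 ± 10.4 CPM (27.1 to 59.3). In each of these 3 lineages the lowest mouse of the cycling class lay above the highest of the other class. The gap was smaller in the remaining lineages, at 1314 ± 194 against 268 ± 57.6 CPM in granulocyte-like and 981 ± 277 against 143 ± 36.5 CPM in endothelial-like cells. Macrophage-like cells had 1174 ± 306 CPM in the 8 mice with enough cycling cells and 190 ± 18.3 CPM when resting. Resting hepatocyte-like and stellate-like cells, without a cycling counterpart large enough to compare, had 328 ± 55.4 and 265 ± 51.8 CPM.

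The make-up by type also differed between the states. In cycling B-like cells H2A gave 58.4% of the member UMIs and H2B 8.36%, while in resting B-like cells H2B gave the largest share, 28.1%, and H2A 25.0%. Resting granulocyte-like cells reached 58.7% H2B with 1.76% H3, hepatocyte-like cells 63.2% H2B, and late erythroid-like cells 41.0% H2B with 18.0% H2A. A single gene, Hist1h2bc, carried most of this: it gave between 0.028 and 0.146 UMIs per UMI of Hist1h2ap in the cycling classes, but 0.521 in resting NK-like, 0.769 in stellate-like, 1.36 in resting B-like, 1.63 in resting endothelial-like, 2.24 in resting macrophage-like, 11.0 in hepatocyte-like, 12.3 in late erythroid-like and 17.9 in resting granulocyte-like cells. These ratios are descriptions of pooled counts within a class, not relative abundances, and they include called doublets. In the stellate-like clusters 49.1% and 27.5% of the cells were called doublets. In hepatocyte-like cells of control mice the mean of Hist1h2ap was 25.3 CPM with doublets and 5.15 CPM without, so the ratio there depends on them. The ratio of Hist1h2ap to Hist1h1b, by contrast, lay between 3.2 and 7.5 in every cycling, between and resting class except late erythroid-like cells, where 39 and 29 UMIs gave 1.35.

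**Figure D1:**
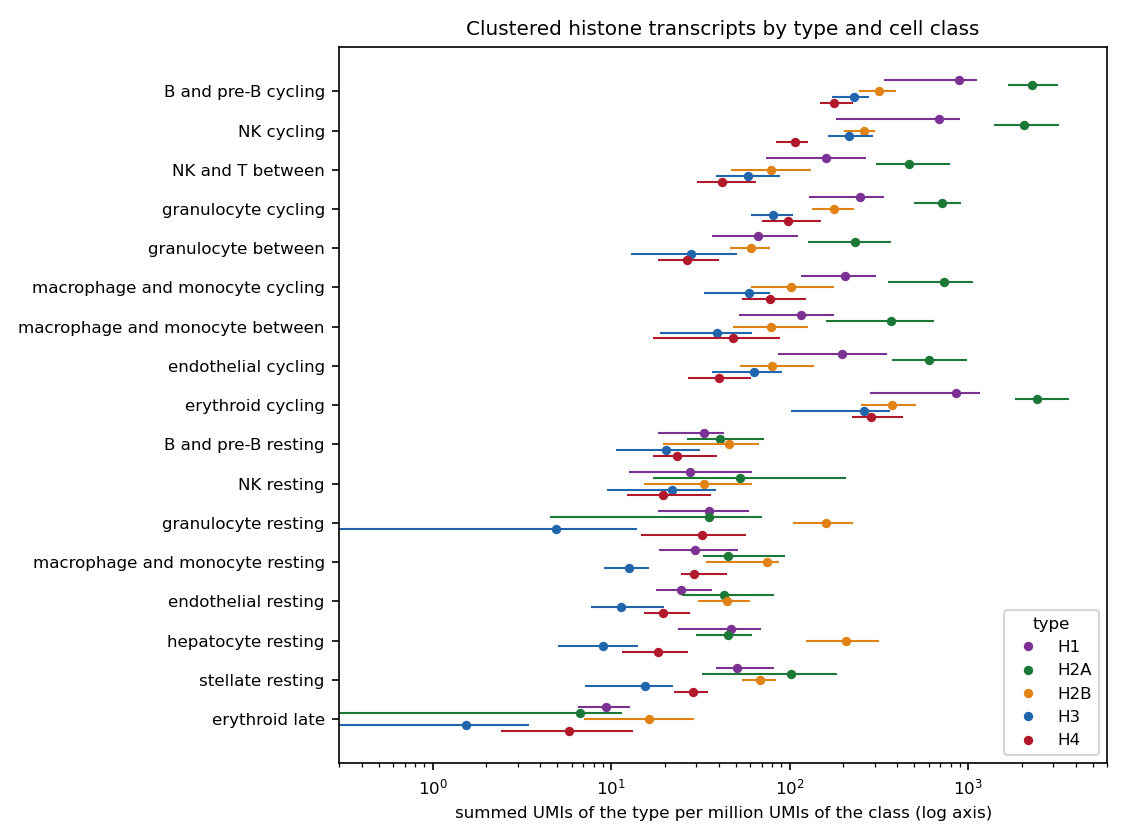
Summed UMIs of each histone type per 1000000 UMIs (log axis) in each cell class; points are means over mice and lines run from the lowest to the highest mouse. Within a lineage the mean of every type is higher in cycling than in resting cells, but H2B in granulocyte-like cells lies at 177 and 160 CPM and overlaps, and resting hepatocyte-like cells have 208 CPM of H2B.

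Cycling and resting clusters were compared within mice by edgeR's quasi-likelihood test on UMIs summed per mouse, with all genes adjusted together. In B-like cells, 55 members passed the filter of a mean of 5 UMIs, and 54 were higher in cycling cells and 0 lower. Over all 12615 genes tested, 40.0% were higher and 39.5% lower, so the members stood apart in direction: their median log2 fold change was 3.76, while that of all genes was -0.01. Without control 3, 53 were called. Called members were 5 of 5 for H1, 13 of 14 for H2A, 15 of 15 for H2B, 10 of 10 for H3 and 11 of 11 for H4.

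The linker histone gene Hist1h1b had 463 ± 95.1 CPM in cycling B-like cells (179.8 to 556.9, median 477.6) and 4.46 ± 1.70 CPM in resting ones (2.13 to 7.94, median 4.40), with no overlap and a log2 fold change of 6.70 ± 0.077 (SE). Hist1h1a had 224 ± 51.7 against 5.75 ± 1.95 CPM. Among the H2A genes, Hist1h2ap had 1677 ± 283 CPM (1390 to 2321) against 19.3 ± 9.59 CPM (9.89 to 42.5), a log2 fold change of 6.49. All 12 mice showed these directions. Hist1h2ae (219 ± 52.7 against 3.39 ± 1.59 CPM) and Hist1h2af (15.9 ± 3.38 against 0.103 ± 0.161 CPM) were also H2A genes that rose. In the H3 type, Hist1h3b rose from 0.303 ± 0.301 to 42.7 ± 13.4 CPM and had the largest log2 fold change of all members, 6.97 ± 0.17. Hist1h4i rose from 11.0 ± 2.62 to 105 ± 16.6 CPM, a log2 fold change of 3.32.

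Members with smaller differences between the states of B-like cells were of several types. The part of RNA from other cells in their resting levels was not tested. Hist1h2bc had 26.1 ± 8.04 CPM in resting cells (10.3 to 35.3) and 74.9 ± 12.9 CPM in cycling cells (54.6 to 101), a log2 fold change of 1.57 ± 0.069. Hist1h1c, the gene of linker histone H1.2, had 12.1 ± 3.72 against 40.1 ± 7.27 CPM and a log2 fold change of 1.76. Hist4h4 had the smallest called change, 1.44, from 2.35 ± 1.07 to 6.09 ± 2.32 CPM. The only tested member not called was Hist3h2a, with a log2 fold change of 0.29 (adjusted p = 0.0692).

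In NK-like cells all 32 tested members were higher in cycling cells, against 23.9% of 10069 genes that were higher and 25.6% that were lower. Hist1h2ap had 1538 ± 401 CPM in cycling cells (1116 to 2413) and 27.4 ± 35.1 CPM in resting cells (7.08 to 136, median 15.2), and its log2 fold change was 5.87. Hist1h1b had 420 ± 115 against 7.79 ± 9.52 CPM (5.78), Hist1h3b 45.8 ± 16.9 against 0.729 ± 0.775 CPM (5.70) and Hist1h2bc 41.4 ± 14.8 against 13.7 ± 4.27 CPM (1.54). Groups overlapped for Hist1h2bc, whose lowest cycling mouse stood at 14.4 CPM and whose highest resting mouse stood at 17.6 CPM.

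Endothelial-like cells showed smaller differences and more members that did not pass. Of 33 tested members, 26 were higher in cycling cells and 0 lower, against 19.6% and 21.8% of 14911 genes. The median log2 fold change of the members was 2.58. Hist1h2ap had 409 ± 120 CPM in cycling cells (256 to 647) and 20.3 ± 13.4 CPM in resting cells (5.02 to 46.2), a log2 fold change of 4.42, and Hist1h3b had 14.2 ± 5.28 against 0.403 ± 0.293 CPM (5.04). Hist1h2bc had 36.6 ± 17.5 CPM (18.0 to 76.1) and 32.3 ± 7.06 CPM (22.1 to 47.2), overlapping throughout, with a log2 difference of 0.15 (adjusted p = 0.284). Hist4h4 (-0.16), Hist3h2a (-0.32), Hist1h2be (-0.04) and Hist2h2aa1 (0.30) did not pass either.

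Granulocyte-like cells, where progenitors were set against neutrophil-like cells, had members that moved both ways. Of 18 tested members, 13 were higher and 4 lower in cycling cells, against 44.5% higher and 37.2% lower of 9519 genes. Library sizes without TMM factors gave 14 higher and 2 lower, because that scaling moved the median of all genes from 0.23 to 1.45. Hist1h2ap rose from 6.20 ± 9.72 CPM in resting cells (0 to 35.1, median 2.66) to 546 ± 117 CPM in cycling cells (381 to 738), and Hist1h1a from 0.671 ± 1.12 to 55.5 ± 15.2 CPM. Hist1h2ai had no UMI in the resting cells of any mouse, among 9161151 UMIs, and 150 UMIs in cycling cells, which made it at least 44.8-fold higher per 1000000 UMIs when a floor of 3 UMIs is set for the resting cells as a whole.

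The 4 members lower in cycling granulocyte-like cells were of types H1, H2A and H2B. Hist2h2aa1 had 4.20 ± 2.45 CPM in cycling cells (1.67 to 10.1) and 21.7 ± 11.4 CPM in resting cells (4.55 to 40.0), a log2 difference of -3.30 that held its direction without TMM factors. Hist1h2bc had 93.0 ± 28.2 CPM (57.7 to 140) and 142 ± 35.6 CPM (88.5 to 206), with ranges that overlapped and a log2 difference of -1.60. Hist1h2be (-1.24) and Hist1h1c (-1.02) were the other two, and Hist1h1c had almost equal CPM in both states, 27.8 ± 11.4 and 29.8 ± 12.4, so that its difference turned to 0.21 (adjusted p = 0.259) without TMM factors. The single H4 gene tested, Hist1h4i, had a log2 difference of 0.23 (adjusted p = 0.239).

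**Figure D2:**
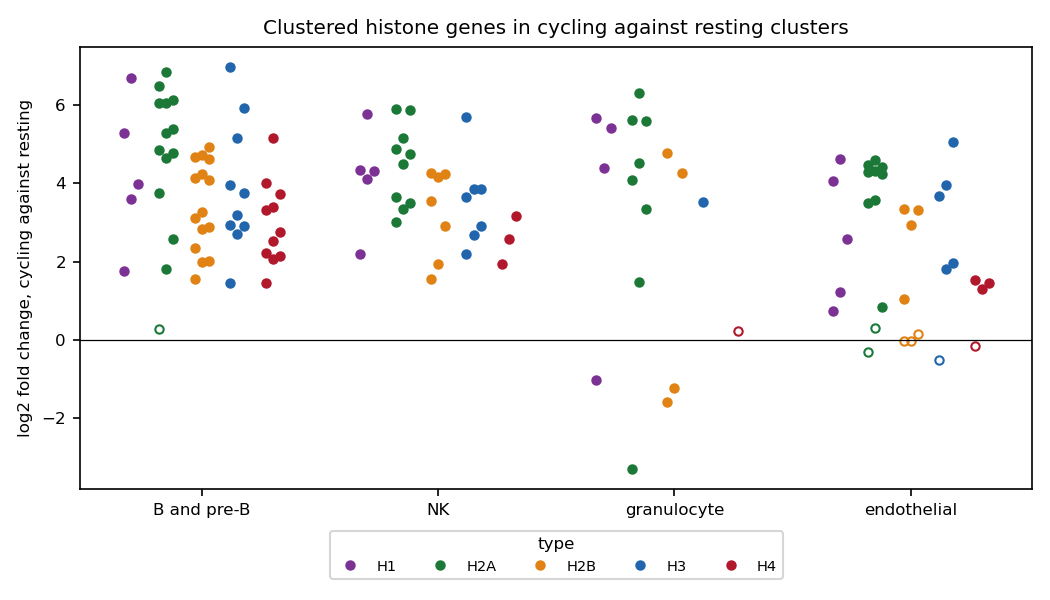
Log2 fold change of each tested member in cycling against resting clusters of 4 lineages, coloured by histone type; filled points passed the test (adjusted p under 0.05) and open points did not. Members stand above 0 in B-like and NK-like cells, while 4 granulocyte-like points lie below 0 and filled.

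Genes around the clustered histones moved in the same comparison. Of a list of histone chaperones, which carry new histones to DNA, 10 of 10 were higher in cycling B-like, 9 of 10 in NK-like, 8 of 10 in granulocyte-like and 9 of 10 in endothelial-like cells. Of genes that transcribe or process histone mRNA, 9 of 9, 5 of 9, 7 of 9 and 7 of 10 were higher. The shares of all tested genes that were higher were 40.0%, 23.9%, 44.5% and 19.6% in the same order. Slbp, which binds the stem-loop, had 617 CPM in cycling and 144 CPM in resting B-like cells (log2 fold change 2.16). Of the listed variant histone genes, which are not among the 67 members, 10 of 10 were higher in cycling B-like cells, with H2afx rising from 39.1 to 671 CPM. In granulocyte-like cells 7 of 10 variant genes were higher and 3 lower, H3f3b among the lower ones with a log2 difference of -1.07.

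The next comparison asked whether members differed between S-rich and G2M-rich cells within cycling clusters. A cell was S-rich if its S list stood higher than its G2M list, each relative to its mean over the cycling cells of the lineage, and otherwise G2M-rich. Cells with under 5 UMIs of both lists were left out. No class was set for G1, so the 2 classes are relative and each may mix phases. The 2 sums of each mouse were compared. In B-like cells (5106 S-rich and 5261 G2M-rich cells of 12 mice), 7 of 53 tested members were higher in S-rich cells and 30 were lower, against 27.1% higher and 28.3% lower of 10875 genes. The types split: H1 had 3 higher and 2 lower of 5, H2A 3 and 6 of 14, H4 1 and 4 of 10, while H2B had 0 higher and 12 lower of 14 and H3 0 higher and 6 lower of 10. The members higher in S-rich cells included those with the most UMIs.

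Hist1h4i had 128 ± 19.9 CPM in S-rich B-like cells (100.9 to 167.5, median 120.8) and 96.6 ± 16.1 CPM in G2M-rich cells (74.9 to 120), higher in 12 of 12 mice, with a log2 difference of 0.45 ± 0.048 (SE). Hist1h1b had 547 ± 119 against 450 ± 106 CPM (0.34, 11 of 12 mice) and Hist1h2ap 1888 ± 325 against 1696 ± 298 CPM (0.21, 11 of 12 mice). Ranges overlapped for each of these 3 genes, so the differences are within mice. Hist2h2ac (0.21) and Hist1h1d (0.22) were also among the higher ones, but Hist1h1d lost its call without 5 of the 12 mice (adjusted p up to 0.18) and by DESeq2, and both lost it without the mouse as a block.

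Hist1h2bc showed the largest difference of members with at least 10 CPM, in the other direction. It had 50.3 ± 8.31 CPM in S-rich (36.4 to 67.9, median 50.6) and 100.2 ± 20.7 CPM in G2M-rich B-like cells (67.3 to 136, median 93.8), lower in 12 of 12 mice, and its log2 difference was -0.93 ± 0.056 (adjusted p = 1.88e-21). Hist1h4m, Hist1h2af, Hist1h4h and Hist3h2ba were each at -0.72. Hist1h1c (32.4 against 50.0 CPM, -0.55), Hist1h2bj (69.2 against 98.1 CPM, -0.46) and Hist1h3e (53.9 against 78.3 CPM, -0.42) were lower in S-rich cells of all 12 mice.

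NK-like cells, with 10 mice, had 6 members higher in S-rich cells and 2 lower of 31 tested, against 12.7% and 12.6% of 8029 genes. Hist1h1a had 76.8 ± 27.5 CPM in S-rich (7.47 to 101, median 79.7) and 36.6 ± 14.1 CPM in G2M-rich cells (3.75 to 53.9, median 38.9), higher in 10 of 10 mice, with a log2 difference of 1.05 ± 0.13. Hist1h3a (1.19), Hist1h1b (0.49), Hist1h2an (0.43), Hist1h3b (0.37) and Hist1h2ap (0.36) were the other 5, and Hist1h3c (-0.73) and Hist1h2ab (-0.55) were lower. Without control 3, 5 were higher and 1 lower. The lower calls were 0 by DESeq2. The calls of Hist1h3b and Hist1h2ab were lost when 9 and 7 of the 10 mice, respectively, were left out in turn.

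In granulocyte-like and endothelial-like cells no tested member was higher in S-rich cells. Granulocyte-like cells (11 mice) had 7 of 16 members lower, against 1.98% lower and 1.6% higher of 7926 genes: Hist1h2ap had 455 ± 124 CPM in S-rich (265 to 655) and 814 ± 282 CPM in G2M-rich cells (551 to 1582), a log2 difference of -0.81 ± 0.13, and Hist1h1b had 92.7 ± 32.1 against 179 ± 67.3 CPM (-0.93). Hist2h2ac (-1.36), Hist1h1e (-1.13) and Hist1h2ag (-1.02) differed most. The call of Hist1h2ag was lost without 8 of the 11 mice (adjusted p up to 0.104), by DESeq2 and with doublets left out, and that of Hist2h2ac without anemia 1 and by DESeq2. DESeq2 called 4 lower, and 4 were called with doublets left out. Endothelial-like cells (10 mice) also had 7 of 24 lower, against 6.86% lower and 7.1% higher of 10542 genes, with Hist1h2ap at 352 ± 95.1 against 409 ± 113 CPM (-0.21) and Hist1h2ae at 52.1 ± 15.6 against 84.6 ± 24.7 CPM (-0.68), though DESeq2 called 1. For the 2 counts of 0 higher members, DESeq2 and limma voom also gave 0. Whether the direction of Hist1h2ap and Hist1h1b differs between lineages was not tested.

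**Figure D3:**
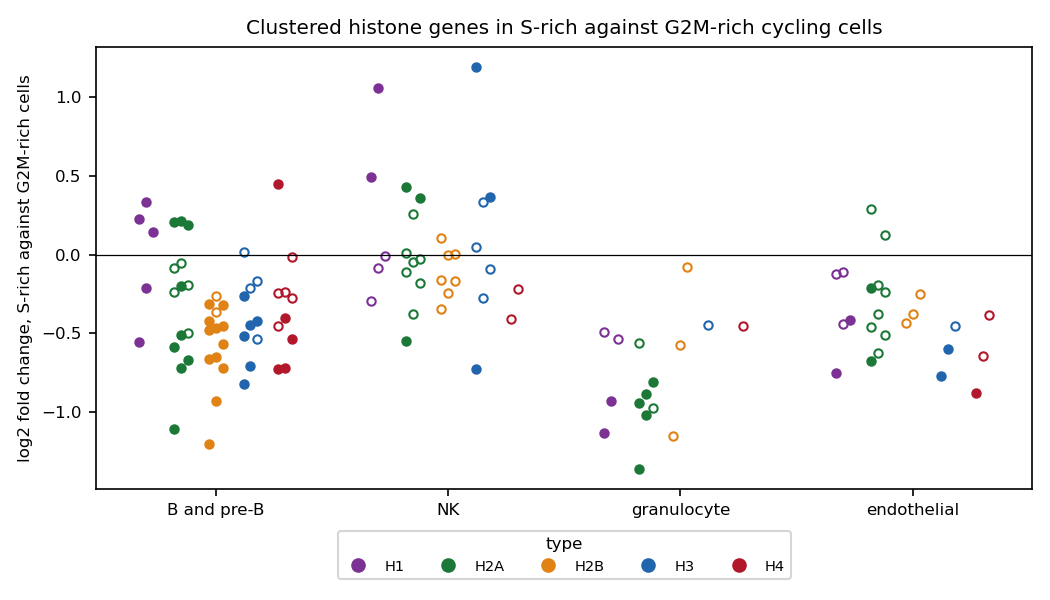
Log2 fold change of each tested member in S-rich against G2M-rich cells of cycling clusters in 4 lineages, coloured by histone type, with filled points past the test. B-like cells hold filled points on both sides of 0, while the filled points of granulocyte-like and endothelial-like cells all lie below 0.

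The related genes were split by phase too. In B-like cells, where 27.1% of all genes were higher and 28.3% lower in S-rich cells, the lists differed in direction. In B-like cells 9 of 10 chaperone genes were higher in S-rich cells and 0 lower, with Chaf1b, a subunit of the chromatin assembly factor, at 64.2 against 17.5 CPM. Slbp had 899 CPM in S-rich and 432 CPM in G2M-rich B-like cells (log2 difference 1.10) and 613 against 246 CPM in NK-like cells (1.30). Of the variant histone genes in B-like cells 2 of 10 were higher and 8 lower in S-rich cells, with H2afx at 419 against 964 CPM (-1.15). Cycling macrophage-like and erythroid-like cells had too few mice with both phases for a test.

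The erythroid lineage was followed from a cycling cluster (1783 cells) to 3 late clusters dominated by globin UMIs (28444 cells), in 12 mice. Per 1000 cells the members had 19800 UMIs in the cycling cluster and 52.2 UMIs in the late clusters. Hist1h2ap had 8369 and 1.25 UMIs per 1000 cells, Hist1h2bc 568 and 16.2, and Hist1h1c 290 and 10.4. The size of the drop per cell thus differed widely between members. In control mice a UMI of Hist1h2ap was found in 51.1 ± 8.85% of cycling and 0.087 ± 0.087% of late cells. In anemic mice the shares were 52.4 ± 5.49% and 0.162 ± 0.124%. Depth differed too, at medians of 1415 and 991 UMIs per cell in control and 2777 and 1348 in anemic mice. All 13 erythroid marker genes were detected in both stages, and 39.8% of the cells of the cycling cluster were called doublets. By mouse this share ran from 3.51 to 53.9% in control and from 26.6 to 87.2% in anemic mice.

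On the scale of the fit, 37 members were tested between late and cycling cells, of which 4 were higher and 33 lower, against 31.4% higher and 40.4% lower of 7865 genes. The median log2 difference of the members was -3.48, with -0.25 for all genes. TMM factors set this scale by the bulk of the genes that remain beside globin. Against all UMIs, most of which are globin in late cells, the median of all genes was -4.59 and all 37 members were lower, so that every higher call below reverses. The 4 higher calls say that a member fell less than most other transcripts of these cells. With globin genes left out and TMM factors kept, the counts were again 4 and 33.

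Hist2h2aa1 (H2A) had 2.95 ± 1.66 CPM of all UMIs in late cells (0 to 5.64, median 2.76) and 10.2 ± 7.61 CPM in cycling cells (0 to 24.0, median 7.48), and stood 2.54 ± 0.28 higher on the scale of the fit and 1.86 lower without TMM factors (-1.86). Hist3h2ba (H2B) had 1.78 ± 0.906 against 12.6 ± 7.23 CPM (1.46, and -2.91 without TMM factors). Hist1h1c (H1) had 7.70 ± 1.94 CPM (4.72 to 10.8) against 61.2 ± 20.1 CPM (28.1 to 95.5), at 1.04 and -3.35. Hist1h2bc (H2B) had 12.4 ± 5.29 CPM (5.90 to 24.7, median 10.5) against 123 ± 24.6 CPM (65.8 to 167, median 126), at 0.60 (adjusted p = 0.0023) and -3.74. The higher call of Hist1h2bc was lost in 5 of 12 alternatives. These were DESeq2 size factors (0.16), no TMM factors, the DESeq2 test, no filter on low counts and the stage by globin share described next. When the stage was set by the globin share of each cell (90% or more against under 10%), 1 of 24 tested members was higher and 21 lower: Hist1h1c was called (1.54, adjusted p = 0.000344), Hist1h2bc was not (0.70, adjusted p = 0.101), and Hist2h2aa1 and Hist3h2ba had too few UMIs for the test. The shares of all genes called in this fit are not given, so its counts stand without that background. The annotated transcripts of Hist3h2ba, Hist1h1c and Hist2h2aa1 carry the stem-loop printed above. It was not found in the 1 annotated transcript of Hist1h2bc, which is spliced, and sequence outside that transcript was not searched. Whether the stem-loop bears on the late levels was not tested.

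The members with the most UMIs in cycling cells were near 0 in late cells. Hist1h2ap had 0.8965 ± 0.7095 CPM in late cells (0 to 2.30, median 0.879) and 1787 ± 365 CPM in cycling cells (1347 to 2706), a log2 difference of -6.75 ± 0.26. Hist1h1b had 0.7095 ± 0.593 against 439 ± 111 CPM (-5.15), Hist1h1a 0.428 ± 0.555 against 219 ± 62.8 CPM (-5.02) and Hist1h2an 0.216 ± 0.302 against 135 ± 40.2 CPM (-4.95). None of these 4 genes had overlapping ranges. Hist1h3c had no UMI among 40434449 UMIs of late cells and 197 UMIs in cycling cells, at least 295-fold lower per 1000000 UMIs with a floor of 3 UMIs over all late cells. Hist1h4i fell less, from 139 ± 50.8 to 3.89 ± 2.55 CPM (-1.14). By type, H1 had 1 higher and 4 lower of 5, H2A 1 and 9 of 10, H2B 2 and 6 of 8, H3 0 and 7 of 7, and H4 0 and 7 of 7.

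Hepatocyte transcripts gave a measure of RNA from other cells in the late erythroid-like cells. The 8 hepatocyte markers, all detected, were there at 5.11% of their level in hepatocyte-like cells in control mice and at 2.37% in anemic mice (2.79% over both, as most late cells were from anemic mice). RNA of hepatocyte-like cells at that share would carry 7.87 of the 12.4 CPM of Hist1h2bc observed over the pooled late cells of control mice and 5.83 of 11.7 CPM in anemic mice. For Hist1h1c it would carry 2.02 of 6.49 CPM in control and 0.626 of 8.23 CPM in anemic mice, and for Hist2h2aa1 0.428 of 2.30 and 0.605 of 3.66 CPM. For Hist1h2ap it would carry 1.28 CPM in control mice, above the 0.811 CPM observed, and 0.265 of 0.999 CPM in anemic mice. These values for Hist1h2ap depend on called doublets among the hepatocyte-like cells. Its mean there was 25.3 CPM with doublets and 5.15 CPM without in control mice, and 10.7 and 8.01 CPM in anemic mice. The 1.28 CPM is thus not that of hepatocyte RNA alone. Over both groups, RNA of hepatocyte-like cells at that share would carry 0.00425 of 2.20 CPM of Hist3h2ba and 0.238 of 3.61 CPM of Hist1h4i. The part of RNA from other cell types in the late levels was not tested beyond these values.

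The cells of these erythroid-like clusters were also binned singly by their globin share. Per 1000000 UMIs other than globin, the members had 4589 ± 1110 in cells under 10% globin (545 cells, 10 mice), 5857 ± 1128 at 10 to 50% (1137 cells), 379 ± 182 at 50 to 80% (2827 cells), 270 ± 58.6 at 80 to 90% (20701 cells) and 288 ± 99.2 at 90% or more (4967 cells). Hist1h2ap went from 2099 ± 406 at 10 to 50% to 26.2 ± 29.6 and 5.26 ± 6.03 in the next bins, and 2 UMIs were left at 90% or more. Hist1h2bc was highest at 10 to 50% (261 ± 66.5) and stood at 119 ± 85.5, 79.1 ± 33.5 and 84.6 ± 74.0 in the later bins, against 95.2 ± 17.4 under 10%. Hist1h1c had 122 ± 35.3 at 10 to 50% and 54.4 ± 33.6, 55.1 ± 13.96 and 59.9 ± 62.6 afterwards, against 49.9 ± 22.6 under 10%. The last bins of these 2 genes overlapped the first, and these bin levels are a description with no test.

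**Figure D4:**
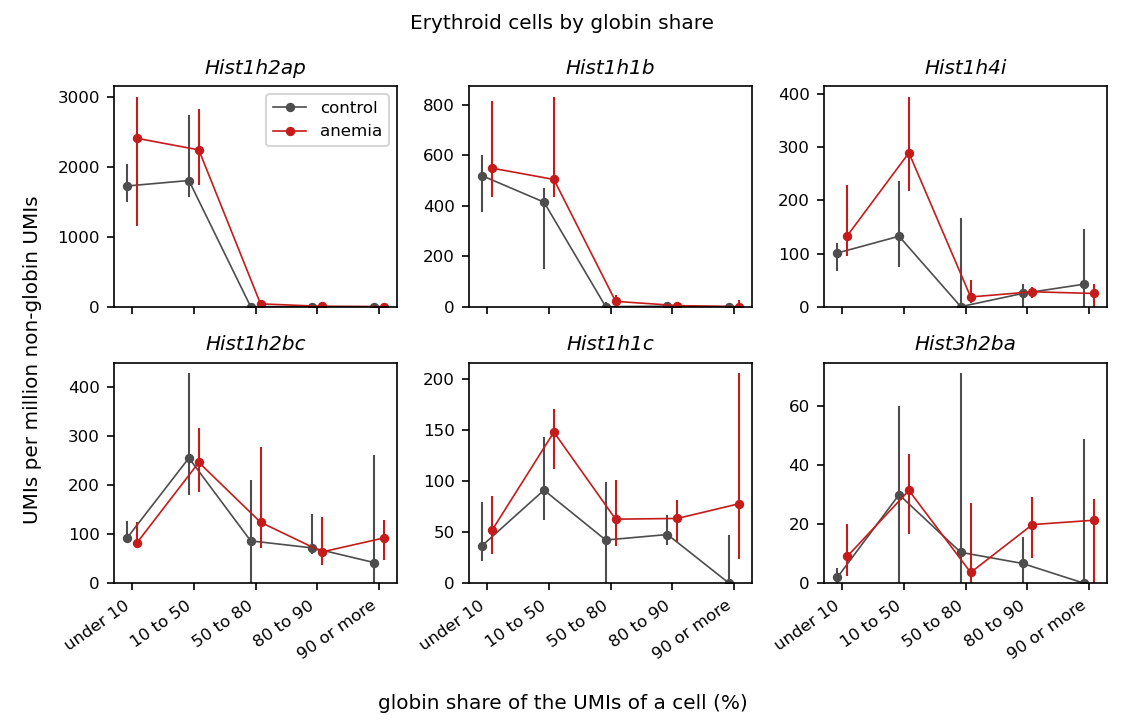
UMIs per 1000000 non-globin UMIs against the globin share of erythroid-like cells, in control and anemic mice; points are medians over mice and lines run from the lowest to the highest mouse. Hist1h2ap and Hist1h1b end near 0 above a globin share of 50%, while the medians of Hist1h2bc stay above 0 in every bin and that of Hist1h1c falls to 0 only in control mice at 90% or more (5 mice).

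Of the related genes, none of 10 chaperone genes was higher in late cells and 8 were lower. Variant histone genes were 2 higher and 7 lower of 9, genes of histone mRNA processing 0 and 6 of 8, and genes of nuclear condensation 1 and 2 of 5, against 31.4% higher and 40.4% lower of all 7865 genes. The higher one was Diaph2, the gene of a formin, a protein that assembles actin; the formin known for its part in enucleation is the product of Diaph3, which the list did not hold.

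Anemia and control were compared within each erythroid stage. In cycling cells 0 of 44 members passed in either direction, against 0.232% higher and 0.0349% lower of 8608 genes. At an unadjusted p under 0.05 were 10 members and 9.57% of all genes, and DESeq2 called 1 and limma voom 0. Calls also arose with doublets left out and with no filter on low counts. The summed level was 4670 ± 895 CPM in anemic and 3763 ± 584 CPM in control mice. Hist1h1e, the gene of linker histone H1.4, had 144 ± 35.3 CPM in anemic (106 to 188) and 71.3 ± 37.8 CPM in control mice (5.98 to 109), a log2 difference of 0.99 with adjusted p = 0.137. Hist1h4i had 171 ± 45.7 against 107 ± 34.1 CPM (0.76, adjusted p = 0.13). A UMI of Hist1h4i was found in 33.3 to 43.1% of cycling cells in anemic and 18.0 to 25.0% in control mice. For any member the shares were 69.7 to 75.0% and 59.1 to 80.8%. The median depths were 2777 and 1415 UMIs per cell, so these shares differ in depth as well. The lowest control value of Hist1h1e was that of the library that stood apart, control 3, which had 167074 UMIs in this class, the fewest of all mice. Without it the log2 differences were 0.82 for Hist1h1e (adjusted p = 0.138) and 0.91 for Hist1h4i (adjusted p = 0.0653), and 0 members passed.

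In late cells 0 of the 5 members with enough UMIs passed, against 5.72% higher and 2.1% lower of 4861 genes. At an unadjusted p under 0.05 were 2 (20.5% of all genes), and DESeq2 and limma voom called 0. Leaving doublets out, dropping the filter on low counts and leaving out anemia 3 each gave 1 call. Hist1h1c had 8.50 ± 1.72 CPM in anemic (6.27 to 10.8, median 8.94) and 6.90 ± 1.93 CPM in control mice (4.72 to 10.1, median 6.34), with a log2 difference of 0.73 ± 0.25 (adjusted p = 0.0794). Hist2h2aa1 had 3.65 ± 1.68 against 2.24 ± 1.43 CPM (1.00 ± 0.42, adjusted p = 0.174). Hist1h2bc had 11.2 ± 3.73 CPM (8.73 to 18.0) against 13.6 ± 6.67 CPM (5.90 to 24.7), a log2 difference of 0.21 ± 0.28 (adjusted p = 0.754), and all groups overlapped. Its direction depended on the scaling: the mean CPM was lower in anemic mice, and without TMM factors, which moved the median of all genes from 0.01 to -0.39, the log2 difference was -0.23. Hist1h1c was at 0.33 and Hist2h2aa1 at 0.62 on that scale. Hepatocyte markers summed to 709 to 4053 CPM in late cells of anemic and 5682 to 9067 CPM of control mice, and in cells with the lower hepatocyte marker share 0 of 4 tested members passed. Late cells held 1533 UMIs of the members in all, 1245 in anemic and 288 in control mice, which limits what could be detected.

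Whether the change from cycling to late cells differed between the groups was tested by the interaction of stage and group. None of 37 members passed (0), against 2.02% higher and 0.0254% lower in anemia of 7865 genes; 3 were at an unadjusted p under 0.05 (12.7% of all genes), limma voom called 2 and DESeq2 0. The interaction was 0.48 for Hist1h2bc (95% interval -0.16 to 1.13), 0.46 for Hist1h1c (-0.27 to 1.19) and 1.23 for Hist2h2aa1 (-0.04 to 2.51) on the log2 scale. The median of all genes was 0.31 on this scale, so these values are to be read against it, and the intervals reach beyond 1.

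In the other classes, few members differed between anemic and control mice. In cycling B-like cells 0 of 60 members passed, against 0.48% higher and 0.583% lower of 12512 genes; 11 were at an unadjusted p under 0.05, as were 13.8% of all genes, and DESeq2 and limma voom called 2 each. Hist1h2ap had 1552 to 2321 CPM in anemic mice (median 1896) and 1390 to 1657 CPM in control mice (median 1459), a log2 difference of 0.32 (adjusted p = 0.0637). Hist1h1b was the 1 member without overlap (480 to 557 against 180 to 475 CPM; 0.631% of all genes were higher without overlap), with a log2 difference of 0.29 and adjusted p = 0.39. In resting B-like cells 1 of 27 was lower, against 3.01% of genes (1.83% higher): Hist1h2bm had 0.833 ± 0.385 against 2.59 ± 1.05 CPM (-1.56, adjusted p = 0.0244), and 0 members passed without control 3.

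In cycling NK-like cells 1 of 37 was lower, against 0.559% of genes (0.34% higher). This was Hist1h2ac, an H2A gene, with 4.75 ± 4.00 CPM in anemic (0 to 9.68, median 5.59) and 15.3 ± 4.89 CPM in control mice (7.04 to 20.6, median 15.97), a log2 difference of -1.42 (adjusted p = 0.0424). It too was no longer called without control 3, nor without 6 of the other 11 mice when each was left out in turn. Resting NK-like cells had 0 of 13 called, against 0.244% higher and 0.572% lower, with 0 at an unadjusted p under 0.05 (12.8% of all genes). Cycling granulocyte-like cells had 0 of 28 called, against 0.0815% higher and 0.0408% lower, with 5 at an unadjusted p under 0.05 (12.9% of all genes) and 1 called by each of DESeq2 and limma voom: Hist1h2ap had 643 ± 69.2 CPM in anemic (558 to 738) and 449 ± 53.9 CPM in control mice (381 to 538), without overlap (0.397% of all genes were higher without overlap), at 0.51 ± 0.10 and adjusted p = 0.0593. Resting granulocyte-like cells had 0 of 6 (0.122% higher and 0.0542% lower) and stellate-like cells 0 of 20 (1.67% and 1.53%), with 1 each at an unadjusted p under 0.05 (10.9% and 15.3% of all genes). DESeq2 and limma voom called 0 in resting NK-like, resting granulocyte-like and stellate-like cells.

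Endothelial-like cells had members higher in anemia in both states. In cycling cells 4 of 31 were higher and 0 lower, against 4.14% higher and 5.14% lower of 11901 genes. Hist1h2bc had 48.8 ± 17.3 CPM in anemic (23.4 to 76.1, median 45.7) and 24.4 ± 4.66 CPM in control mice (18.0 to 29.7, median 24.9), a log2 difference of 1.12 ± 0.21 (adjusted p = 0.00216). Hist1h3d had 13.8 ± 5.43 against 5.69 ± 1.26 CPM (1.45), Hist1h2ap 489 ± 109 against 328 ± 64.3 CPM (0.65), and Hist1h2bb passed at 1.17. The groups overlapped for all 4 genes, and 3 were called without control 3.

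In resting endothelial-like cells 6 of 27 were higher and 0 lower, against 7.63% higher and 9.93% lower of 16199 genes. Hist1h2ap had 28.2 ± 12.9 CPM in anemic (10.1 to 46.2, median 28.5) and 12.4 ± 8.78 CPM in control mice (5.02 to 29.4, median 10.8), at 1.32 (adjusted p = 0.0359), with control 3 the highest control mouse. Hist1h2an (1.77), Hist1h2ae (1.11), Hist1h2ai (1.07), Hist1h1b (1.00) and Hist1h1e (0.73) were the others, all at means under 10 CPM, and 5 members were called without control 3. Leaving out single mice gave 2 to 9 calls, and Hist1h2ap lost its call without 8 of the 12 mice (adjusted p up to 0.0741). The S-phase list, only 1 of the 2 lists that set the state, summed to 685 ± 37.8 CPM in anemic and 686 ± 73.0 CPM in control mice in these cells. The clusters of the class changed in size. That led by Dnase1l3 and Gpihbp1 held 6936 control and 3759 anemia cells, that led by Adam23 and Fgf23 4432 and 3525, and that led by Mecom and Thsd7a 920 and 1036. Both lists together stood at 1151, 966 and 1617 CPM in these clusters, and the part of the cluster mix was not tested. Hepatocyte markers were lower in anemia here (296 to 1447 against 1717 to 2592 CPM) and erythroid markers higher (2280 to 6151 against 833 to 2082 CPM). In cells with the lower hepatocyte marker share Hist1h2ap was at 1.18 and not called (adjusted p = 0.101), as at Leiden resolution 1 (1.08, adjusted p = 0.0637), and the part of erythroid RNA was not tested.

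In resting macrophage-like cells 1 of 38 was higher, against 6.67% of 14837 genes (4.08% lower). Hist1h2ap had 23.7 ± 22.5 CPM in anemic (9.21 to 68.4, median 17.0) and 8.67 ± 2.48 CPM in control mice (lowest 5.40, median 8.54), at 1.57 (adjusted p = 0.0475). The value of 68.4 CPM was that of anemia 2, and without this mouse the log2 difference was 0.80 (adjusted p = 0.0549). The call was also lost without each of the 6 control mice, without anemia 3 and without anemia 6 (adjusted p up to 0.107), and by limma voom and without TMM factors. The class held different clusters in the groups: the macrophage cluster led by Clec4f and Vsig4 had 7421 control and 3379 anemia cells, the monocyte cluster led by Ly6i and Clec4e 479 and 6568, and the macrophage cluster led by Marco and Saa3 556 and 2592. Hepatocyte markers were lower in anemia (327 to 1713 against 1817 to 2851 CPM) and erythroid markers higher (2781 to 4064 against 745 to 2244 CPM), and the part of erythroid RNA was not tested. In cells with the lower hepatocyte marker share the log2 difference was 1.72 (adjusted p = 0.0427), and with the coarser clusters of Leiden resolution 1 it was 0.67 and not called (adjusted p = 0.166).

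Hepatocyte-like cells had the largest share of members that passed, in a class where 52.9% of all genes did. Of 16 tested members 2 were higher and 4 lower, against 26.0% higher and 27.0% lower of 12159 genes, library sizes without TMM factors gave 2 and 7, and 3 were higher and 4 lower without control 3. Hist2h2aa1 had 23.0 ± 9.85 CPM in anemic (12.8 to 37.7, median 21.02) and 8.32 ± 2.41 CPM in control mice (5.23 to 12.2, median 8.15), without overlap (15.9% of all genes were higher without overlap), with a log2 difference of 1.81 ± 0.26 (adjusted p = 3.36e-05). Hist1h2bc had 243 ± 42.4 CPM (184 to 308, median 242) against 157 ± 25.0 CPM (118 to 187, median 164), overlapping in the range of 184 to 187 CPM, at 0.91 ± 0.13 (adjusted p = 3.74e-05). With doublets left out the means were 25.7 against 8.60 CPM and 285 against 172 CPM. Erythroid markers moved with the groups in this class, at 8249 to 28710 CPM in anemic and 1677 to 7644 CPM in control mice, and the hepatocyte markers themselves were at 107900 ± 17330 against 132400 ± 4607 CPM. The clusters also changed in size: that led by Uox and Fabp1 held 1594 control and 4315 anemia cells, and that led by Apob and Cps1 held 2374 and 1325. Both genes stayed called with the coarser clusters of Leiden resolution 1 (1.76 for Hist2h2aa1 and 0.87 for Hist1h2bc), and the part of erythroid RNA was not tested.

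The calls of the 4 lower members of hepatocyte-like cells depended in part on the doublets. With doublets left out, 9 members were tested, of which 2 were higher (Hist2h2aa1 and Hist1h2bc) and 1 lower, Hist1h1d (-1.58, adjusted p = 0.00318), while Hist1h2be and Hist1h2ae were under the filter on low counts and could not be tested. The shares of all genes called without doublets are not given, so these counts show only which calls held. Hist1h2ap had 10.7 ± 2.52 CPM in anemic (8.11 to 14.9) and 25.3 ± 6.90 CPM in control mice (19.2 to 37.9), without overlap (13.4% of all genes were lower without overlap), at -0.90 (adjusted p = 0.00052). With doublets left out it had 8.01 ± 2.49 against 5.15 ± 3.76 CPM and a log2 difference of 0.81 (adjusted p = 0.0518), the opposite direction. Doublets were called in 7.65 to 16.01% of these cells in control and 11.4 to 31.5% in anemic mice. Hist1h1d (1.36 against 4.53 CPM, -1.30), Hist1h2be (-0.99) and Hist1h2ae (-0.86) were the other 3, all under 5 CPM. The variant genes H2afj and H1f0, which are expressed outside S phase, were higher in anemia by 0.95 and 0.89 on the log2 scale.

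**Figure D5:**
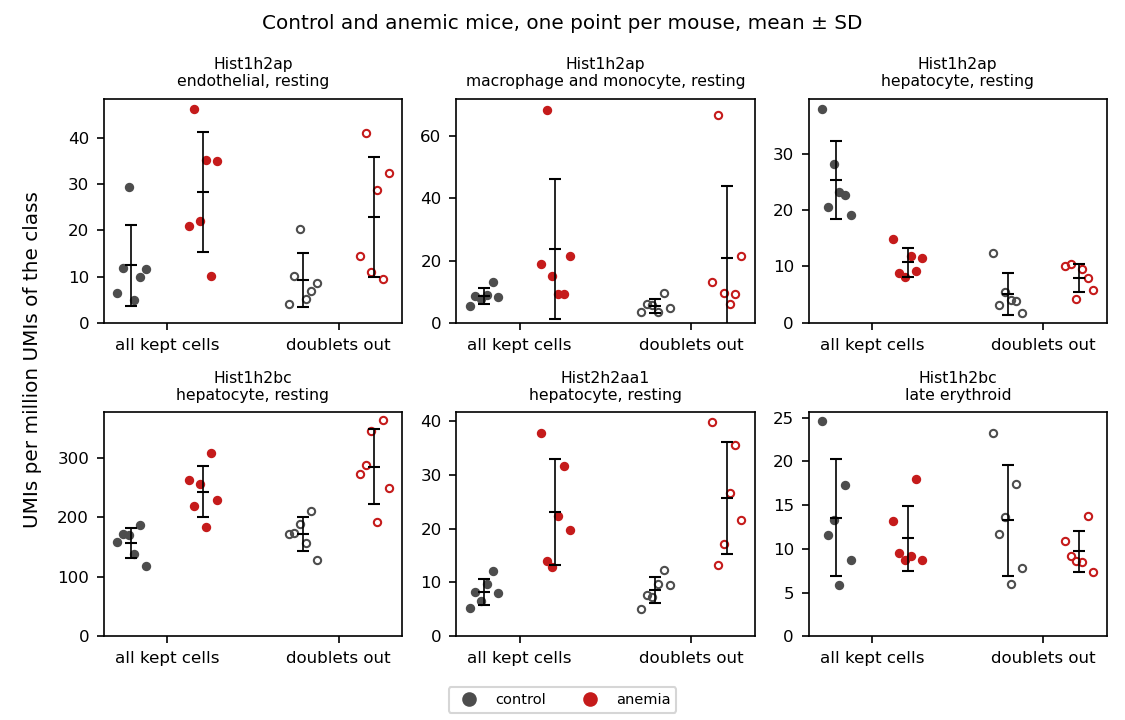
UMIs per 1000000 of chosen members in single control and anemic mice, with mean ± SD, for all kept cells and with called doublets left out. Hist2h2aa1 in hepatocyte-like cells separates the groups in both settings, whereas the order of the groups for Hist1h2ap in these cells turns when doublets are left out.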

How the data were processed

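Single-cell libraries of dissociated liver from 12 mice (6 control, 6 anemic) were read from the deposited matrices. The authors made these UMI counts per gene and cell with Cell Ranger (7.0.0 in the matrix headers) on mm10, and the submitters' processing notes also name Seurat; the counts were raw, with no normalization. The labels name a 3′ v2 kit while the study's methods name a later version, and the annotation release is not given in the sources used here.

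Cells outside 500 to 50000 UMIs or above a mitochondrial share of 50% were removed. Cells were clustered without the histone genes (Leiden, resolution 2) and named from marker lists. Clusters with at least 5000 CPM of the S and G2M lists were called cycling and those under 2000 CPM resting. Doublets were called from simulated pairs and kept in the main analysis. UMIs were summed per mouse and class with at least 20 cells, with at least 4 mice per group, and a gene entered a test when its sums averaged 5 UMIs or more. Mitochondrial and ribosomal protein genes were left out of the tests. The test was edgeR 4.0.16, quasi-likelihood with TMM factors and the mouse as a block within mice, and Benjamini-Hochberg adjustment over all genes at 0.05; SE is that of the log2 fold change. Levels are UMIs per 1000000 UMIs of a class in each mouse, given as mean ± SD over mice. Alternatives were DESeq2 1.42.0, limma 3.58.1 voom, other scalings, filters, clusterings and doublet settings, and leaving out each mouse. The tests were run on simulated data first. Transcripts were from GENCODE M21 and promoters from RefSeq.

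Named members were, per comparison and direction, up to 5 called members with the largest change among those with at least 10 CPM in 1 group, the 2 genes per type with the highest CPM, and up to 3 called genes per group of related genes; other members named were chosen after their values were seen. The members and lists were chosen with earlier results of these data known. Library totals were 46252146 to 74545930 UMIs. Each mouse is 1 library, so p-values between anemic and control mice measure the spread between mice, from which that of library preparation cannot be told apart. With the mouse as a block, p-values between states measure the spread over mice of the difference within a mouse.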

Additional observations from a re-analysis of the deposited data

Results flagged for a closer look

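Of 44 groups of 6 mice examined, 6 held a mouse whose gap to the others was large for its group, and chance marks about 1 in 20 groups. The summed members stood at 2721 CPM in cycling B-like cells and 2153 CPM in cycling NK-like cells of control 3, both lowest of the control mice. The same mouse had the highest control value of Hist1h2ap in resting endothelial-like cells, 29.4 CPM. Anemia 2 had the highest summed level in resting NK-like cells, 404.8 CPM, and the highest Hist1h2ap in resting macrophage-like cells, 68.4 CPM. Control 2 had the lowest summed level in resting macrophage-like cells, 149.5 CPM.

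The difference of Hist1h2ap between anemic and control mice was not the same in all classes. On the log2(CPM + 1) scale it was 1.19 in resting endothelial-like, 1.04 in resting macrophage-like and -1.15 in hepatocyte-like cells. The gap to hepatocyte-like cells was 2.34 for endothelial-like and 2.19 for macrophage-like cells, each with p = 0.00216 by a two-sided exact permutation test over 924 assignments of the group labels, the smallest p these can give (adjusted p = 0.00325 over 3 comparisons). With called doublets left out the gaps were 0.51 (p = 0.435) and 0.67 (p = 0.307) by the same exact permutation test. The third comparison, of Hist1h2bc between hepatocyte-like and endothelial-like cells, gave 0.43 (exact permutation p = 0.102). These tests were chosen after seeing the data, and the cause was not tested.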

How the results depend on the processing

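Of 737 recomputed counts of called members (32 results), 620 stayed within 1.5 times the main count and 117 moved, while 7 results stayed within it throughout. Filters, cell choices and clusterings also change how many members are tested. The counts below come without the number tested and the share of all genes called. A lower or higher count is therefore not read as support lost or gained. Of 1493 recomputed log2 differences of named genes, 1365 kept direction and call, 122 kept direction only and 6 reversed. The reversals were Hist1h1c in granulocyte-like cells (0.21) and, in late erythroid-like cells, Hist2h2aa1 (-1.86), Hist3h2ba (-2.91), Hist1h1c (-3.35) and Hist1h2bc (-3.74), all without TMM factors, and Hist1h2ap in hepatocyte-like cells without doublets (0.81).

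A mean of 50 UMIs left fewer genes to call: cycling against resting had 19 higher in B-like (main 54), 5 in NK-like (32), 2 higher and 1 lower in granulocyte-like (13 and 4) and 5 in endothelial-like cells (26); S against G2M had 11 lower in B-like (30), 2 higher and 0 lower in NK-like (6 and 2), 2 lower in granulocyte-like (7) and 2 in endothelial-like cells (7); late erythroid-like cells had 1 higher and 6 lower (4 and 33); anemia gave 0 in resting B-like (1), cycling NK-like (1) and macrophage-like cells (1), 1 in cycling granulocyte-like (0), 2 in cycling (4) and 2 in resting (6) endothelial-like and 3 in hepatocyte-like cells (6). With no filter, cycling cells had 51 higher in NK-like, 31 in granulocyte-like and 48 higher and 1 lower in endothelial-like cells, S against G2M 1 lower in NK-like cells, and anemia 5 in cycling B-like, 2 in cycling NK-like, 1 in cycling granulocyte-like, 2 in cycling and 1 in late erythroid-like cells.

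DESeq2 gave 0 lower in NK-like, 4 in granulocyte-like and 1 in endothelial-like S-rich cells, and for anemia 2 in cycling B-like, 0 in cycling NK-like, 1 in cycling granulocyte-like and 1 in cycling erythroid-like cells. Limma voom gave 2 in cycling and 0 in resting B-like, 2 in cycling NK-like, 1 in cycling granulocyte-like, 7 in cycling endothelial-like and 0 in macrophage-like cells and 2 interactions. Without TMM factors, 2 were lower in cycling granulocyte-like and 0 higher in late erythroid-like cells, and anemia gave 1 in cycling B-like, 1 in cycling granulocyte-like and 0 in macrophage-like cells. Without doublets, 1 was lower in NK-like and 4 in granulocyte-like S-rich cells, and anemia gave 0 in cycling NK-like, 2 in macrophage-like, 3 in hepatocyte-like, 1 in cycling and 1 in late erythroid-like cells. Leiden resolution 1 gave 1 in cycling and 0 in resting B-like, 1 in cycling granulocyte-like, 3 in resting endothelial-like and 0 in macrophage-like cells; cycling state by cell gave 1 lower in endothelial-like cells; a mitochondrial limit of 10% gave 1 in cycling granulocyte-like cells; globin bins gave 1 higher and 21 lower in late erythroid-like cells. Y-linked expression as a covariate gave 1 in cycling and 0 in resting B-like, 2 in cycling NK-like and 2 in macrophage-like cells, and cells with fewer hepatocyte transcripts 0 in resting B-like and 0 in cycling NK-like cells. The cause was not tested.

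Without the mouse as block, S against G2M gave 3 higher in B-like, 2 higher and 0 lower in NK-like and 2 lower in endothelial-like cells. The replicate numbers were not taken to pair the mice: over 6 resting classes the correlation of same-numbered mice ran from -0.18 to 0.56 and was above 0.1 for 20 of 36 pairs, from 2 of 6 in B-like to 5 of 6 in macrophage-like cells (0.064 to 0.40), so no class had all pairs above it, and 10 of 36 correlated best with their own number. With the replicate number as a block, anemia gave 4 in cycling B-like, 2 in resting B-like and 0 in macrophage-like cells.

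Leaving out each mouse gave 0 to 1 lower in cycling endothelial-like cells, 1 to 2 lower in NK-like, 4 to 10 in granulocyte-like and 3 to 7 in endothelial-like S-rich cells, and for anemia 0 to 4 in cycling and 0 to 1 in resting B-like, 0 to 2 in cycling NK-like, 0 to 1 in cycling granulocyte-like, 2 to 9 in resting endothelial-like, 0 to 2 in macrophage-like and 0 to 1 in late erythroid-like cells. No fit was made for NK-like and T-like cells at resolution 1 and for granulocyte-like cells with state by cell. Low counts limit the late erythroid-like and resting granulocyte-like cells, where 5 and 6 members were tested between groups.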

Other observations

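The 22434 cells outside the 8 lineages, which were those of the 19 unnamed clusters (14375 cells) and of dendritic-like and basophil-like clusters, had a summed level of the members of 440 ± 71.6 CPM in control mice (369 to 550) and 487 ± 93.4 CPM in anemic mice (317 to 595), and the groups overlapped (n = 6 each).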
